A study of Mus musculus with 17 samples.

Results

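The fatty acid desaturases described here are the 7 genes *Scd1*, *Scd2*, *Scd3*, *Scd4*, *Fads1*, *Fads2* and *Fads3*. They were chosen by name and matched by Ensembl gene ID to the libraries, and all 7 were found among the 55401 gene IDs of each file. The libraries were made by paired-end RNA-seq from whole perigonadal white adipose tissue (pWAT) of C57BL/6J mice on normal chow, 1 library per mouse, at 16 weeks of age by the stated protocol. WT mice were littermates of mice with a homozygous germline deletion of the lncRNA *U90926* (U9-KO), both from heterozygous parents. The groups were 5 WT females, 5 U9-KO females, 3 WT males and 4 U9-KO males. The deletion is present in every cell of the U9-KO mice, so that a change in pWAT need not arise in fat cells. *U90926* had a value of 1 in 2 of the 8 WT libraries and 0 in the other libraries, including all 9 U9-KO libraries, and at this level it could not serve as a check of the genotype labels.

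Desaturases are membrane enzymes of the endoplasmic reticulum that put a double bond into a fatty acyl chain, taking electrons from cytochrome b5 and its reductase. The stearoyl-CoA desaturases (*Scd* genes) convert saturated acyl-CoAs made by fatty acid synthase and its elongases into monounsaturated ones, which are the main acyl chains stored in triglycerides of fat. *Scd1* is the form known for adipose tissue and liver, and *Scd2* for brain and development. *Fads2* (delta-6) and *Fads1* (delta-5) act in turn, with an elongation step between them, to make arachidonic acid and other long polyunsaturated fatty acids from dietary precursors, whereas *Fads3* acts on sphingoid bases. SREBP-1c, encoded by *Srebf1*, and the liver X receptors are known activators of these genes.

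All 7 genes lie on chromosome 19 in 2 clusters (GRCm38). *Fads3* (chr19:10041569-10060110, + strand), *Fads2* (chr19:10062765-10101746, - strand) and *Fads1* (chr19:10182888-10196877, + strand) form the first. *Fads2* and *Fads3* end 2654 bp apart. The second holds *Scd3* (chr19:44203269-44244016, + strand), *Scd2* (chr19:44293674-44306864, + strand), *Scd4* (chr19:44333092-44346743, + strand) and *Scd1* (chr19:44394455-44407879, - strand). *Scd1* and *Scd4* are separated by 47711 bp. No other gene overlapped the exons of 6 members, and a microRNA gene listed at 0 in every library overlapped 61 bp of the exons of *Scd2*.

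The *Scd* genes are close copies, which bears on how far their counts can be told apart. Between *Scd1* and *Scd2* 89.6% of the aligned coding bases were identical, between *Scd1* and *Scd3* 90.5%, and between *Scd1* and *Scd4* 84.5%. The longest stretch without a difference was 147 bp for *Scd1* and *Scd2*, 185 bp for *Scd1* and *Scd3* and 116 bp for *Scd1* and *Scd4*. The *Scd1* and *Scd3* transcripts shared 36 windows of 150 bp, the length of 1 read of a pair. The first set of sequences shows coding exon sequence around the first histidine box, whose histidines bind the iron of the enzyme. It is the coding strand of the GENCODE vM21 transcripts, with the 18 bases of the box in capitals in *Scd1* and every base that differs from *Scd1* in capitals in the other genes.
Scd1: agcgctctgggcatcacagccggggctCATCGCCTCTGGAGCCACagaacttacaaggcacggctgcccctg
Scd2: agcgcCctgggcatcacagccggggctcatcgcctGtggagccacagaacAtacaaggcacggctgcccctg
Scd3: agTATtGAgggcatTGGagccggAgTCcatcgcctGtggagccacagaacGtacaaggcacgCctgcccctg
Scd4: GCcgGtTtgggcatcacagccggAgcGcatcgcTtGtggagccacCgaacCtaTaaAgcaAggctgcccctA

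Over these 72 bases *Scd2* differed from *Scd1* at 3 positions, and *Scd3* and *Scd4* each at 14. The second set is the 60-base coding stretch in which *Scd2* differed most from *Scd1*, marked in the same way without a box. Here *Scd2* differed at 14 positions and *Scd4* at 11, whereas *Scd3* differed at 2.
Scd1: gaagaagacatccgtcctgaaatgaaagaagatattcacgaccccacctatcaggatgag
Scd2: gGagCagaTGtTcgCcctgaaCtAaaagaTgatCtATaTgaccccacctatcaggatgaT
Scd3: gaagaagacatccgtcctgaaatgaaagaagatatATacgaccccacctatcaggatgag
Scd4: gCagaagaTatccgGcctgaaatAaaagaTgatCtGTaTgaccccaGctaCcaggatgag

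The *Fads* genes are more distant from each other, with 62.8% to 69.8% of coding bases identical between pairs. The longest stretch without a difference was 54 bp, between *Fads2* and *Fads3*, so no stretch of 150 bp matched more than 1 of them exactly. The coding stretch around their first histidine box is shown with the 15 bases of the box in capitals in *Fads1* and differences from *Fads1* in capitals in the other genes.
Fads1: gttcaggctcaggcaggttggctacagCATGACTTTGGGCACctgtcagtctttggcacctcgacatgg
Fads2: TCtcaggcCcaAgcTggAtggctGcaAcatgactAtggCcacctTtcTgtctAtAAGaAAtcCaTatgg
Fads3: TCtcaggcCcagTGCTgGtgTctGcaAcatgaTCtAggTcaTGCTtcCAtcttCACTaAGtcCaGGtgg

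In these 69 bases *Fads2* differed from *Fads1* at 20 positions and *Fads3* at 30.

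The deposited values were normalized counts rounded to whole numbers, and their totals were 20243688 to 28620744 per library. The median ratio of a library to the mean of all 17 lay at 1.03 to 1.06 for females and at 0.948 to 0.963 for males, but 1.00 to 1.01 within each sex. The scaling thus appeared to have been set within each sex, and levels were not tested between the sexes. A ratio of genes within a library does not depend on the scaling. The 5 adipocyte markers (*Adipoq*, *Plin1*, *Cidec*, *Lep*, *Fabp4*) were present in every library, with sums of 140786 to 336053 in females and 361992 to 478064 in males. The 9 ovary markers include the steroidogenic genes *Star*, *Cyp11a1* and *Hsd3b1*. Each was above 0 in every female, except that *Cyp19a1* was 0 in U9-KO females 4 and 5 and WT female 2. The sums of the 9 markers ranged from 3618 to 138365 in females, with 138365 in U9-KO female 1 and 122848 in WT female 4, against 186 to 421 in males. These 2 libraries also had the lowest adipocyte sums of their groups, 140786 in U9-KO female 1 and 161867 in WT female 4. Leaving them out therefore removes the highest ovary and the lowest adipocyte signal together, and the 2 were not tested apart. Female fold changes and ratios named below that moved by more than 1.5 times without these 2 libraries are given both ways. The oviduct marker *Ovgp1* had 7684 in WT female 3 and 1256 in U9-KO female 4, against 22 to 212 in the other females. *Foxj1*, the other oviduct marker, had 169 and 328 there, against 35 to 294 in the others. WT female 3 and U9-KO female 4 had the lowest *Scd1* and *Fasn* of their groups. Whether oviduct RNA bears on the desaturase values was not tested. In whole tissue, fewer cells of a type and less RNA per cell cannot be told apart.

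*Scd1* ranked first of 55401 genes by mean normalized count over the 17 libraries, which is not corrected for length, and made up 0.398% of the total in WT female 3 to 4.73% in U9-KO female 3. *Scd2* ranked 159, *Fads3* 548, *Fads1* 1113, *Fads2* 3623, *Scd3* 12290 and *Scd4* 16025. Per kb of exon, the order *Scd1*, *Scd2*, *Fads3*, *Fads1*, *Fads2*, *Scd3*, *Scd4* held for the medians of the folds between neighbours over the 17 libraries. *Scd1* was above *Scd2* per kb in 17 of 17 libraries, by 16.2-fold to 120.2-fold. *Fads3* was above *Fads1*, *Fads1* above *Fads2* and *Fads2* above *Scd3* in all 17. Neighbours whose order changed between mice were *Scd2* and *Fads3*, with *Scd2* higher in 11 of 17 libraries, and *Scd3* and *Scd4*, with *Scd3* higher in 16 of 17.

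**Figure D1:**
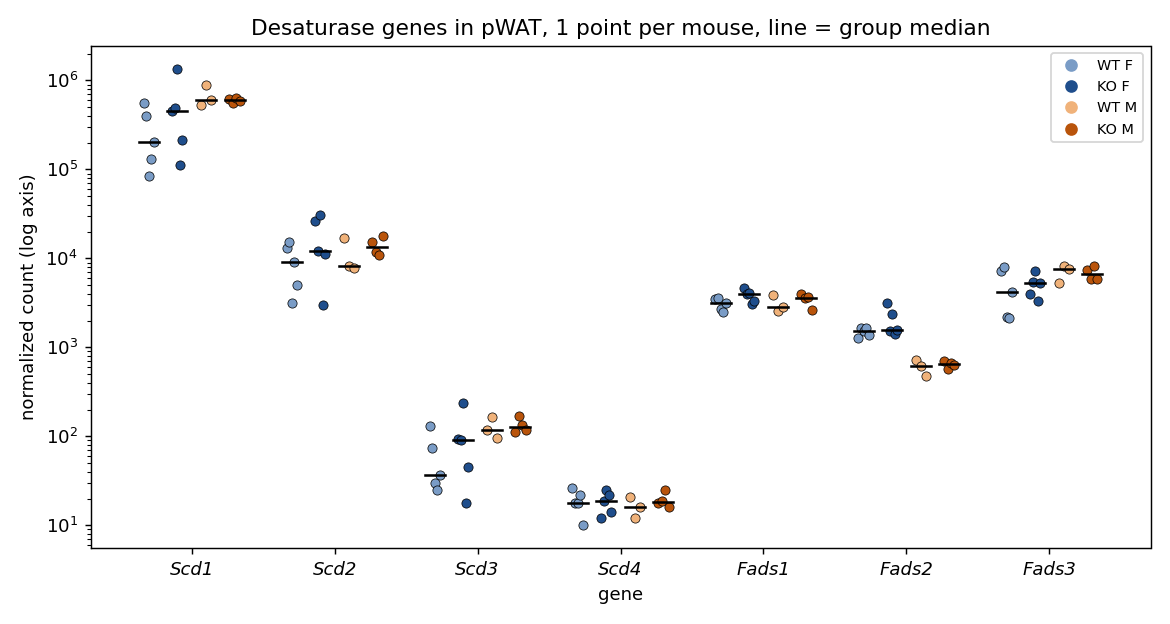
Normalized counts (log axis) of the 7 desaturase genes, 1 point per mouse, by genotype and sex, with a line at each group median. *Scd1* spans 85092 to 1353006, *Scd4* stays between 10 and 26, and the *Fads2* points of the males (477 to 725) all lie below those of the females (1273 to 3160) on values whose scaling was set within each sex.

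*Scd1* varied widely among females and little among U9-KO males. WT females 1 to 5 had normalized counts of 552069, 402277, 85092, 131556 and 205500. The U9-KO females had 456277, 495714, 1353006, 112234 and 211873, and overlapped the WT females. Males had 536320, 883534 and 597501 (WT) and 617058, 555907, 639963 and 591082 (U9-KO). The highest library was 6.49-fold above the lowest in WT females and 12.1-fold in U9-KO females, against 1.65-fold in WT and 1.15-fold in U9-KO males.

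*Scd2* had 13201, 15270, 3176, 9081 and 5054 in the WT females and 26177, 12036, 30483, 3018 and 11138 in the U9-KO females. WT males had 16937, 8211 and 7850, and U9-KO males 15234, 11893, 10938 and 17759. The groups overlapped in both sexes. U9-KO female 4, with the lowest value, was also the library with the lowest *Scd1* of its group. *Scd2* made up 0.921% to 6.45% of the summed *Scd* values of a library, and *Scd1* 93.5% to 99.1%.

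*Scd3*, known from skin glands, made up 0.0156% to 0.0340% of the *Scd* sum. Its values were 132, 74, 30, 25 and 37 in the WT females, and 93, 90, 239, 18 and 45 in the U9-KO ones. Males had 119, 166 and 95 (WT) and 113, 170, 135 and 118 (U9-KO). Given the shared windows described above, the value of *Scd3* is uncertain, and whether *Scd1* reads were counted for it was not tested. *Scd4*, known from heart, had 10 to 26 normalized counts in all 17 libraries, and its 4 groups overlapped.

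*Fads3* had 7254, 7918, 2222, 2166 and 4215 in the WT females. The U9-KO females lay within this range, at 3973, 5451, 7145, 3334 and 5230. Males had 5278, 8165 and 7686 (WT) and 7373, 5858, 8301 and 5890 (U9-KO). *Fads3* supplied the largest share of the *Fads* sum per kb in every library, from 35.3% to 74.7%.

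*Fads1* varied by 1.43-fold to 1.51-fold between the lowest and highest library of a group. WT females had 3463, 3598, 2712, 2512 and 3147, and U9-KO females 4622, 3974, 4122, 3087 and 3310. The U9-KO values tended to be higher, but 2 of them lay within the WT range. WT males had 3833, 2594 and 2817 and U9-KO males 3985, 3550, 3686 and 2643.

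*Fads2* had 1273, 1672, 1545, 1656 and 1372 in the WT females. The U9-KO females had 3160, 1540, 2397, 1424 and 1570. The 3160 belonged to U9-KO female 1, the library with the highest sum of ovary markers. WT female 4, with the next highest sum (122848), had 1656, and U9-KO female 3, with a sum of 5115, had 2397. Whether ovary RNA bears on *Fads2* was not tested. WT males had 725, 625 and 477 and U9-KO males 705, 569, 673 and 628. *Fads2* supplied 12.8% to 32.3% of the *Fads* sum per kb in females and 5.25% to 9.14% in males.

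**Figure D2:**
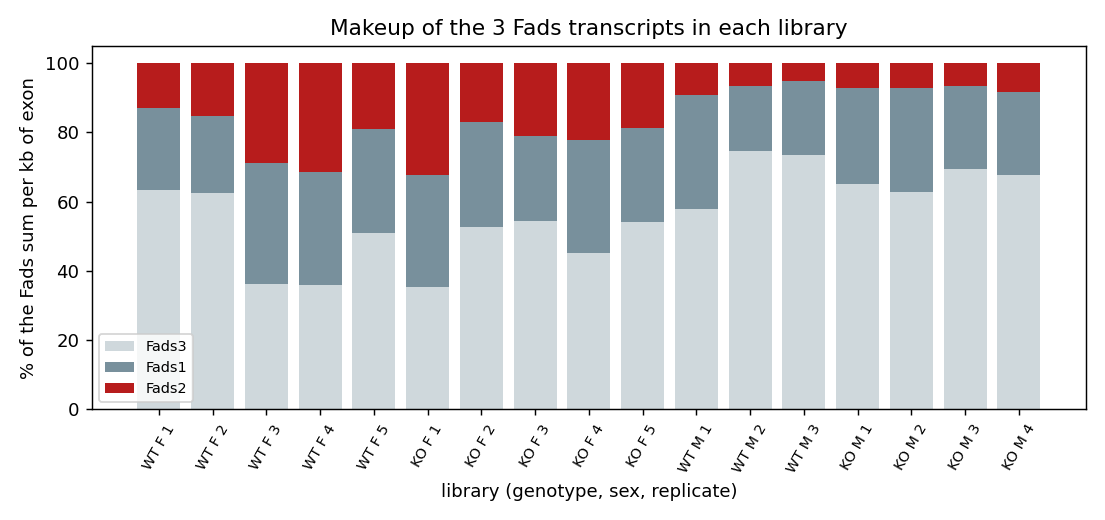
Share of *Fads1*, *Fads2* and *Fads3* in their sum per kb of exon, in percent, with 1 bar per library, named by genotype, sex and replicate. *Fads2* takes 12.8% to 32.3% in the 10 females and 5.25% to 9.14% in the 7 males, and *Fads3* is the largest share in every bar.

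The ratio of *Fads1* to *Fads2* differed between the sexes and not detectably between the genotypes. WT females had ratios of normalized counts of 2.72, 2.15, 1.75, 1.52 and 2.29, and U9-KO females 1.46, 2.58, 1.72, 2.17 and 2.11. WT males had 5.28, 4.15 and 5.90, and U9-KO males 5.65, 6.23, 5.47 and 4.20, so the lowest male ratio was above the highest female ratio in both genotypes. Averaged over the genotypes, the log2 ratio was 1.37 higher in males, a 2.59-fold difference (two-sided exact permutation of sex labels within genotype, p = 0.000283, the smallest this design allows, and adjusted p = 0.00255 over 9 ratio tests). The ratio test does not show which of the 2 genes differed, and the shares of each library's total were not tested. *Fads1* took 0.0124% to 0.0215% of the total in females and 0.0111% to 0.0168% in males, which overlapped, whereas *Fads2* took 0.00530% to 0.0147% in females and 0.00205% to 0.00305% in males, which did not. The shares are a description of the same values, and separation of the sexes was not counted over all genes. It was not particular to *Fads2*. In normalized counts *Hacd2* (1457 to 3451 in females, 6292 to 8622 in males) and *Cyb5a* (3731 to 5721 and 7539 to 10888) did not overlap either, whereas *Cyb5r3* did.

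The ratio at the extremes of the ovary sum ran as follows, with no test made. The 2 females with the highest ovary sums had the 2 lowest ratios, 1.46 and 1.52, and the 2 with the lowest sums, WT female 1 (3618) and U9-KO female 2 (4656), had the 2 highest, 2.72 and 2.58. The other 6 females did not follow this order, and WT female 5, with the third highest sum (37259), had 2.29. The sex difference without the 2 ovary-richest libraries was 1.26 on the log2 scale (exact permutation, adjusted p = 0.00735). The part of ovary RNA in the remaining difference was not tested. Within a sex, the U9-KO minus WT difference of the log2 ratio was -0.05 in females (exact permutation, p = 0.762, adjusted p = 0.857) and 0.08 in males (p = 0.629, adjusted p = 0.808).

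**Figure D3:**
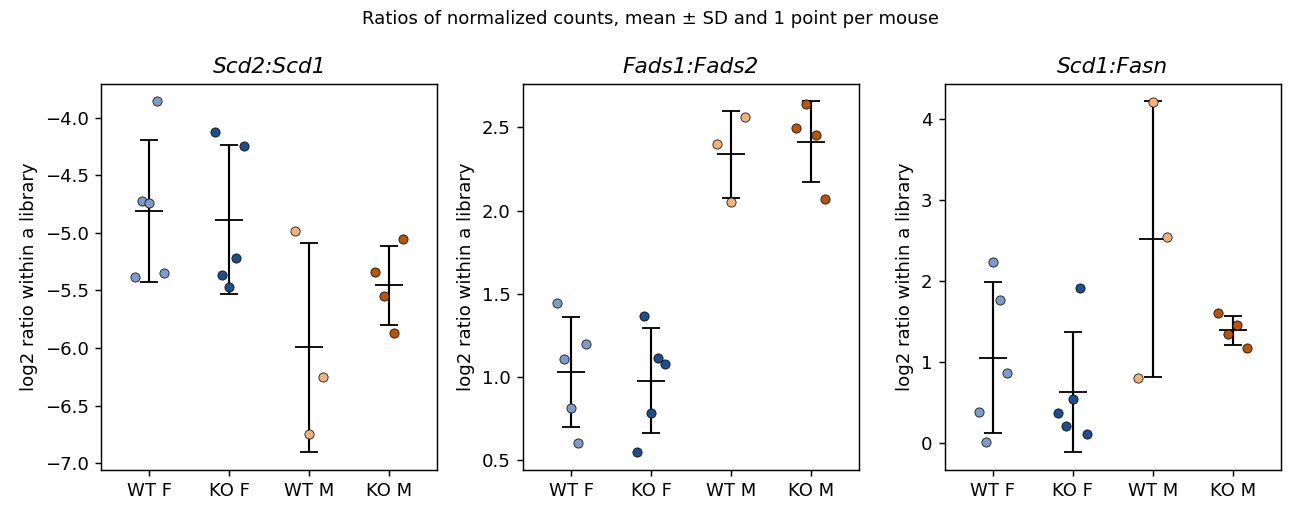
Log2 ratios of normalized counts within each library for *Scd2* to *Scd1*, *Fads1* to *Fads2* and *Scd1* to *Fasn*, 1 point per mouse, with the mean and SD of each group. The *Fads1* to *Fads2* points of the 7 males all lie above those of the 10 females, the other ratios overlap between the sexes, and WT male 2 stands highest for *Scd1* to *Fasn*.

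The *Scd2* to *Scd1* ratio did not differ past the threshold in any contrast. Females had ratios of 0.0225 to 0.0690 and males of 0.00929 to 0.0316. The log2 ratio was -0.88 in males relative to females, with an exact permutation p = 0.0204 and adjusted p = 0.0918. Without WT male 1 it was -1.13 and passed (exact permutation, adjusted p = 0.0408). Leaving out the 2 ovary-richest females gave -0.66 (exact permutation, adjusted p = 0.174). U9-KO minus WT was -0.07 in females (exact permutation, p = 0.857), or -0.027 without the 2 ovary-richest libraries, and 0.54 in males (p = 0.343). With 3 against 4 mice, the smallest p that this test allows is 0.0571, so no male difference could pass.

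*Scd1* was also set against *Fasn*, the synthase that makes palmitate, a precursor of the saturated acyl-CoAs that the *Scd* enzymes desaturate. Females had ratios of *Scd1* to *Fasn* between 1.01 and 4.72. U9-KO males had 2.26 to 3.03, and the 3 WT males had 1.74, 18.4 and 5.80. The highest ratio belonged to WT male 2, which had the highest *Scd1* of the males, 883534, and the lowest *Fasn*, 47950. U9-KO minus WT was -0.43 on the log2 scale in females (exact permutation, p = 0.413, adjusted p = 0.619), or -0.18 without the 2 ovary-richest libraries, and -1.12 in males (p = 0.286, adjusted p = 0.617). Without WT male 2, the difference in males was -0.27. Males minus females was 1.11 (exact permutation, p = 0.0411, adjusted p = 0.123), and 0.69 without WT male 2. It reached 1.54 when WT male 1 was left out (exact permutation, adjusted p = 0.0238).

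No desaturase changed past the threshold with loss of *U90926* in either sex. Across all genes limma called 0 of 24825 genes in females and 0 of 21930 in males at an adjusted p under 0.05, which is 0% in both, while 553 (2.23%) and 1667 (7.6%) had an unadjusted p under 0.05. None of the 7 members had groups that did not overlap, against 0.238% of the genes tested in females and 7.6% in males. Over the members, log2 fold changes had a median of 0.36 for females and 0.10 for males, against 0.00 over all genes tested in each. In U9-KO females 6 of 7 were higher, against 12407 of all 24825 genes, and in U9-KO males 5 of 7, against 10995 of 21930. The members are not independent counts.

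In females the log2 fold change of *Scd1* on the log2(value + 1) scale was 0.77 (95% CI -0.74 to 2.27, adjusted p = 1 by limma, n = 5 and 5). It was 0.30 without U9-KO female 3, 1.2 without U9-KO female 4 and 0.51 without the 2 ovary-richest libraries. *Fads1* had the narrowest, 0.31 (95% CI 0.01 to 0.61), with an unadjusted p = 0.0462 by limma and an adjusted p = 1, and 0.16 without the 2 ovary-richest libraries. For *Scd2* the value was 0.69 (SE 0.61), for *Scd3* 0.51 (SE 0.64), for *Fads2* 0.36 (SE 0.21), for *Fads3* 0.24 (SE 0.38) and for *Scd4* -0.02 (SE 0.32), each with an adjusted p = 1. Leaving out 1 mouse gave *Scd2* 0.37 (without WT female 3) to 1.21 (without U9-KO female 4) and *Scd3* 0.071 (without U9-KO female 3) to 0.99 (without U9-KO female 4). It also gave *Fads2* down to 0.18 (without U9-KO female 1) and *Fads3* from 0.012 (without WT female 4) to 0.48 (without WT female 2). Without the 2 ovary-richest libraries *Scd3* had 0.18, *Fads2* 0.22, *Fads3* 0.084 and *Scd4* 0.19. Within WT females the highest library was at least 3.66-fold above the lowest for *Scd1*, *Scd2*, *Scd3* and *Fads3*, which exceeded each of these differences.

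In males the log2 fold change of *Scd1* was -0.13 (95% CI -0.79 to 0.53, adjusted p = 0.923 by limma, n = 3 and 4). *Scd2* had 0.41 (SE 0.26, adjusted p = 0.717), which became 0.77 when WT male 1 was left out (limma, adjusted p = 0.0975). The others lay between -0.03 for *Fads3* and 0.26 for *Scd4*, with adjusted p of 0.793 to 0.973. With 1 mouse left out, *Scd2* fell to 0.22 (without WT male 3), *Fads1* ranged over 0.060 to 0.34 and *Scd4* over 0.066 to 0.45, the lower value without WT male 2 and the higher without WT male 1. The difference between the sexes in the effect of genotype was tested by an interaction term, and no member passed. It was -0.90 for *Scd1* (SE 0.90, adjusted p = 1 by limma), and 0 of 26289 genes were called (0%), with 910 (3.46%) at an unadjusted p under 0.05.

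**Figure D4:**
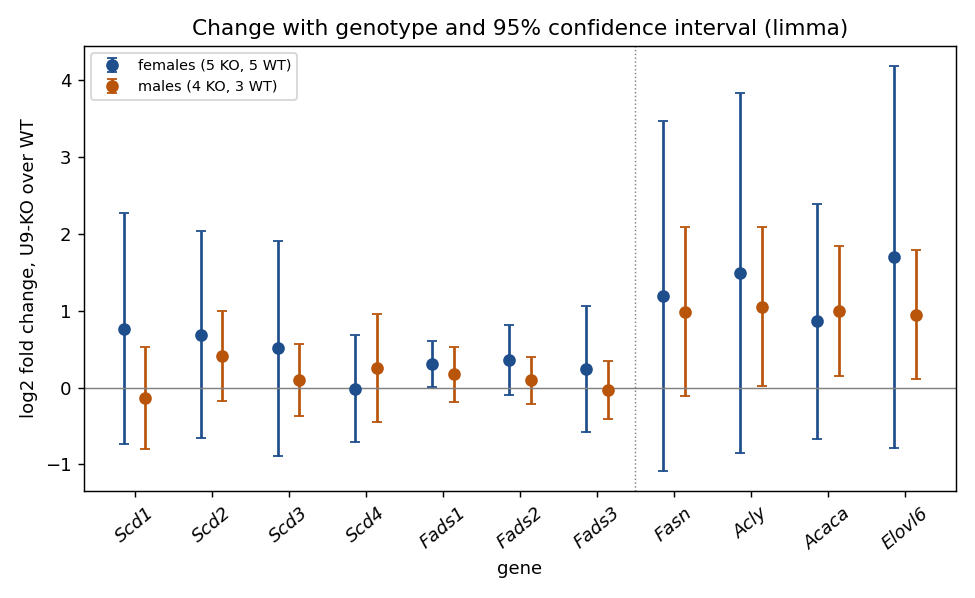
Log2 fold change of U9-KO over WT with its 95% confidence interval from limma, for the 7 desaturases and for 4 genes of fatty acid synthesis and elongation, in females (5 and 5 mice) and males (4 and 3). The intervals of *Scd1* reach from -0.74 to 2.27 for females and -0.79 to 0.53 for males, and no gene shown passed an adjusted p under 0.05.

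Several members varied together among females. Of the 42 pairs tested over both sexes, 5 passed an adjusted p under 0.05 by Pearson's r, all in the 10 females, and 7 by Spearman's rho, 6 of them in females. Pearson's r of the log2 values was 0.97 for *Scd1* and *Scd3* (permutation, adjusted p = 0.00126, Spearman's rho 0.95, adjusted p = 0.00294), and 0.99 without the 2 libraries farthest from the median *Scd1*. For *Scd1* and *Scd2* it was 0.88 (adjusted p = 0.0149, rho 0.88, adjusted p = 0.0181, and r = 0.77 without 2 libraries). *Scd2* and *Scd3* gave 0.85 (permutation, adjusted p = 0.0269, rho 0.90, adjusted p = 0.0181, and 0.78 without 2). *Scd1* with *Fads1* gave 0.82 (permutation, adjusted p = 0.0342, rho 0.84, adjusted p = 0.0253, and 0.78 without 2), and *Scd1* with *Fads3* gave 0.82 (adjusted p = 0.0342, rho 0.77, adjusted p = 0.0651, and 0.75 without 2). By rho alone, *Scd2* and *Scd3* each passed with *Fads1* (rho 0.87 for both, permutation, adjusted p = 0.0181), with r = 0.76 (adjusted p = 0.0604) and 0.78 (adjusted p = 0.0581), or 0.74 and 0.82 without 2. With genotype means subtracted, *Scd1* and *Scd2* no longer passed with *Fads1* by rho (0.78 and 0.77, permutation, adjusted p = 0.063 for both). *Scd1* with *Fads1* still passed by r (0.83, permutation, adjusted p = 0.0347). By rho *Scd3* still passed with *Fads1* (0.87, permutation, adjusted p = 0.0465), and newly with *Fads3* (0.83, adjusted p = 0.0465). *Scd1* and *Scd3* share windows of 150 bp, as given above. Whether *Scd1* reads counted for *Scd3* enter the pairs with *Scd3* was not tested.

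*Fads2* and *Scd1* had r = 0.45 in females (permutation, p = 0.196, adjusted p = 0.409, rho 0.20 with adjusted p = 0.833, and r = 0.25 without 2). With its neighbour *Fads3*, which lies 2654 bp away, *Fads2* had r = 0.05 (permutation, p = 0.897, adjusted p = 0.966, rho -0.02 with adjusted p = 0.973, and r = -0.23 without 2). In the 7 males no pair passed by Pearson's r. *Scd1* and *Scd2* had r = -0.58 (exact permutation, p = 0.152, adjusted p = 0.355, rho -0.57 with adjusted p = 0.481), and -0.04 without WT males 1 and 2. *Scd1* and *Fads3* had r = 0.69 (exact permutation, p = 0.0369, adjusted p = 0.129, and 0.84 without the same 2 males), with a rho of 0.93 that passed (adjusted p = 0.0405). With genotype means subtracted the rho was 0.75 and no longer passed (exact permutation, adjusted p = 0.232). Whether the sexes differed in these relations was not tested.

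**Figure D5:**
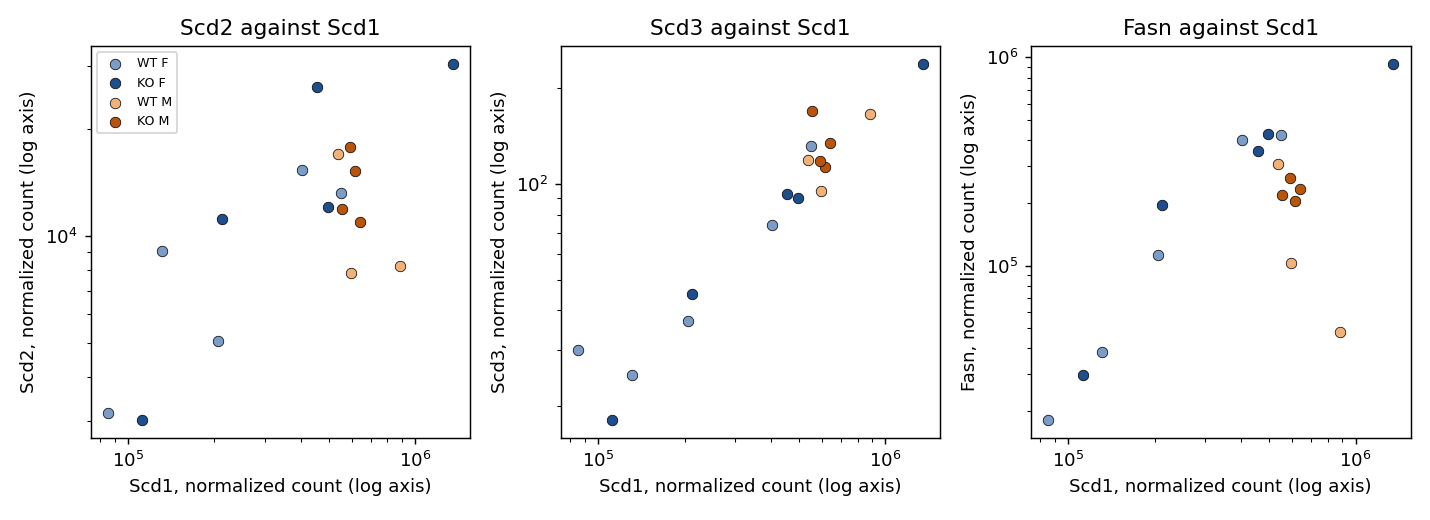
Normalized counts of *Scd2*, *Scd3* and *Fasn* against *Scd1* (log axes), 1 point per mouse by genotype and sex. The 10 females follow *Scd1* over its range from 85092 to 1353006 (r = 0.88 for *Scd2* and 0.97 for *Scd3*), whereas WT male 2 pairs an *Scd1* of 883534 with a *Fasn* of 47950. Whether *Scd1* reads counted for *Scd3* enter the *Scd3* values was not tested.

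The genes most like each member were sought over the 17 libraries after the group means had been subtracted from the log2 values, among genes with a mean of at least 100. These are descriptions with no test. For *Scd1* they were *C130074G19Rik* (r = 0.97), *Rmc1* (0.97) and *Dnajb14* (0.97). For *Scd2* they were *Sbk1* (0.96), *Prelid3b* (0.96) and *Ykt6* (0.96), and for *Scd3* *Mapk8ip1* (0.96), *Dnajb14* (0.95) and *Arfgef2* (0.95). *Fads3* was most like *Fry* (0.95), *Rps6ka3* (0.95) and *Lep* (0.94), the gene of the adipocyte hormone leptin. *Fads2* had *Epb41l5* (0.96), *Pyroxd1* (0.90) and *Hmgb3* (0.90), *Fads1* had *Agap3* (0.87), *Eif6* (0.85) and *Lrrc14* (0.84), and the sparse *Scd4* had *Pcnp* (0.82), *A530001N23Rik* (0.79) and *Mcoln1* (0.78). The females, which varied more, weighed most in these values. The r of *Dnajb14* with *Scd1* was 0.99 in females and 0.30 in males.

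Of the genes that make the substrates, all 8 of the fatty acid synthesis list were higher in U9-KO in both sexes and none passed the adjusted threshold. Of all genes tested, 12407 of 24825 were higher in females and 10995 of 21930 in males, which is also the background for the lists below. The 8 genes are not independent counts, and all 8 were highest in U9-KO female 3. The synthesis list had a median of 0.94 (log2) for females and 0.73 for males. *Fasn* had 423472, 398953, 18029, 38582 and 112571 in the WT females. The U9-KO females had 353643, 429828, 931443, 29690 and 196207, and 3 of the 5 lay within the WT range. On the log2 scale *Fasn* was 1.19 higher in U9-KO females (SE 1.04, adjusted p = 1 by limma) and 0.99 higher in U9-KO males (SE 0.49, adjusted p = 0.663). *Acly*, which makes cytosolic acetyl-CoA from citrate, had 1.497 in females (SE 1.07) and 1.06 in males (SE 0.46, adjusted p = 0.646 by limma). *Acaca*, the acetyl-CoA carboxylase of the cytosol, had 0.86 (SE 0.70) and 1.00 (SE 0.38, adjusted p = 0.614). In females these became 0.69 for *Fasn*, 0.96 for *Acly* and 0.53 for *Acaca* without the 2 ovary-richest libraries. With 1 mouse left out they ranged from 0.55 to 1.95, 0.94 to 2.36 and 0.47 to 1.38, the highest in each case without U9-KO female 4 and the lowest without WT female 3 (*Fasn*) or U9-KO female 3.

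These male differences moved with the WT males included. WT male 1 had 308595 for *Fasn*, above each of the 4 U9-KO males (203465 to 261989), while the other WT males had 47950 and 102942. Without WT male 1, limma called 71 of 21467 genes (0.331%). *Fasn* and *Acaca* were among them at 1.70 and 1.53, as were *Acly* at 1.74 (limma, adjusted p = 0.0415) and the elongase *Elovl6* at 1.55 (adjusted p = 0.0246), while 0 of the 7 desaturases were, a share from which nothing is read at this background. Without WT male 2 the values were 0.36 for *Fasn*, 0.54 for *Acly*, 0.49 for *Acaca* and 0.56 for *Elovl6*, and no gene was called. *Scd1* had 536320 in WT male 1 and 883534 and 597501 in the other WT males.

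Of the 13 elongation genes, 9 were higher and 4 lower in U9-KO in each sex, with medians of 0.14 in females and 0.11 in males, and none passed. *Elovl6*, which lengthens palmitate to stearate, had a log2 fold change of 1.70 in females (SE 1.14, adjusted p = 1 by limma) and 0.95 in males (SE 0.38, adjusted p = 0.629). The next members by mean over the 17 libraries were *Hsd17b12*, a reductase of the elongation cycle, with 2335 to 11494 normalized counts in females and 2856 to 6166 in males, and *Hacd2*, a dehydratase of the same cycle, with 1457 to 3451 and 6292 to 8622.

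Of the 6 electron donor genes, 3 were higher in U9-KO females and 4 in U9-KO males, and none passed (medians 0.01 and 0.04). *Cyb5b*, the cytochrome b5 of the outer mitochondrial membrane, had 0.40 in females (SE 0.33, adjusted p = 1 by limma) and 0.35 in males (SE 0.14, adjusted p = 0.629). *Cyb5a*, the b5 of the endoplasmic reticulum, lay between 3731 and 5721 in females and between 7539 and 10888 in males, and the reductase gene *Cyb5r3* between 4278 and 6979 and between 5533 and 7125.

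The 14 regulators had medians of 0.05 in females and 0.07 in males, 12 of them higher in U9-KO in each sex, and none passed. *Insig1*, which holds SREBPs in the endoplasmic reticulum and is itself a target of them, had 0.81 in females (SE 0.56, adjusted p = 1 by limma) and 0.77 in males (SE 0.33, adjusted p = 0.632). *Srebf1* had 3242 to 14156 in the WT females against 5399 to 23376 in the U9-KO females, with 6576 to 17276 in WT males and 13760 to 16186 in U9-KO males. *Mlxipl*, the gene of the carbohydrate-responsive factor ChREBP, had 1766 to 6958 and 2365 to 12039 in the females and 2902 to 4961 and 4132 to 4963 in the males. Among all the pathway genes, the groups of *Nr1h2*, a liver X receptor gene, in males alone did not overlap, against 7.6% of the genes tested.

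Of the 6 other lipid desaturases, 5 were higher in U9-KO females and 3 in U9-KO males (medians 0.12 and 0.03), and none passed. *Sc5d*, which desaturates a sterol on the way to cholesterol, had 0.56 in females (SE 0.48, adjusted p = 1 by limma) and 0.56 in males (SE 0.16, adjusted p = 0.612). The ceramide desaturase *Degs1* lay between 1747 and 2622 in females and between 2478 and 3393 in males. Of the 9 genes that use the products, 6 were higher in each sex (medians 0.10 and 0.18), and none passed. *Dgat2*, which makes triglyceride, had 1.02 in females (SE 0.76, adjusted p = 1 by limma, and 0.62 without the 2 ovary-richest libraries) and 0.48 in males (SE 0.20, adjusted p = 0.629). *Acsl1*, which activates fatty acids, lay between 15078 and 46030 in females and between 15376 and 34543 in males, and *Dgat1* between 3665 and 9529 and between 4365 and 7764.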

How the data were processed

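RNA-seq of whole pWAT was deposited as 1 table per mouse. Reads had been trimmed (trim_galore), aligned to GRCm38 with STAR 2.7.3a and counted per gene with summarizeOverlaps (Union mode). The deposited values are normalized counts from DESeq2 1.28.1 that the authors rounded to whole numbers, and were treated as a score rather than as counts. The raw depth is unknown, and low values carry rounding error. Whether counting used the strand is not given in the sources used here. The combined table of all libraries was equal to the single tables and was not used.

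Values were analysed as log2(value + 1) with limma 3.58.1 in R 4.3.3 (lmFit, eBayes with trend), for genes with a total of at least 10 in the libraries compared and p-values adjusted by Benjamini-Hochberg across every gene in the fit (threshold 0.05). Females and males were fitted apart, and the interaction over all 17. Differences of 3 within-library log2 ratios were tested by exact permutation in 3 contrasts, adjusted over the 9 tests. For an alternative, only the p of the altered test was replaced before this adjustment, and the other tests kept their main p. Pairs of members were correlated over females (100000 resamples) and over males (all orders), adjusted over 42 pairs. Symbols were matched for 55141 of 55401 IDs. Coding sequences and exon lengths came from the GENCODE vM21 annotation of GRCm38, and identities from pairwise alignment with Biopython 1.88. The scripts were tested on simulated data.

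Alternatives were other pseudocounts, filters and normalization, no trend, a replicate block, all libraries in 1 fit, an ovary marker covariate and each library left out in turn. Leaving out the 2 ovary-richest libraries was chosen after seeing the data. The members, ratios and pathway lists were chosen with earlier results of these data known. Named genes were the members, *U90926*, the 3 members of each pathway list with the highest mean and any that passed the threshold, and the 3 genes most like each member, of which 1 gene is not reported here. *Nr1h2* and the marker genes were named outside this rule. Each library was 1 mouse, so p-values measure the spread between mice.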

Additional observations from a re-analysis of the deposited data

Results flagged for a closer look

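One of 30 sets of values (7 genes and 3 ratios in the 3 groups of 4 or 5 mice) held a library far from the others of its group, and chance flags about 1 in 20. The *Scd1* to *Fasn* ratio was 3.78 in U9-KO female 4, and the other 4 mice of that group had 1.08 to 1.45. This mouse had the lowest *Scd1* (112234) and the lowest *Fasn* (29690) of its group. Ratios of 3.41 and 4.72 occurred in WT females 4 and 3, which had *Fasn* values of 38582 and 18029. The oviduct marker *Ovgp1* had 1256 in U9-KO female 4, 7684 in WT female 3 and 130 in WT female 4. Whether oviduct RNA bears on these ratios was not tested.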

How the results depend on the processing

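The number of genes called changed from 0 to 1 without the variance trend in females and in males, and from 0 to 1 without a filter in the interaction. With 1 mouse left out in turn it was 0 to 0 in females and in the interaction, and 0 to 71 in males, where 71 came without WT male 1. No member was called under any alternative. Of 161 member values under alternatives other than leaving out 1 mouse, 157 kept their direction and 1, *Scd1* in males after quantile normalization, came to 0. The exceptions were 0.038 for *Fads3* in males with the replicate block, and, without the 2 ovary-richest libraries, 0.19 for *Scd4* in females and 0.0104 for *Fads1* in the interaction. With 1 mouse left out, members whose direction turned ranged from -0.21 to 0.12 (*Scd4*, females), -0.069 to 0.23 (*Fads2*, males), -0.28 to 0.084 (*Scd1*, males), -0.22 to 0.090 (*Fads3*, males), -0.087 to 0.31 (*Scd3*, males), and, in the interaction, -0.89 to 0.029 (*Scd3*), -0.25 to 0.035 (*Fads1*) and -0.80 to 0.079 (*Scd2*). The cause was not tested.

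For the ratios with 1 mouse left out, U9-KO minus WT ranged from -0.27 to 0.16 (*Scd2* to *Scd1*, females), 0.16 to 1.05 (males), -0.16 to 0.054 (*Fads1* to *Fads2*, females), -0.065 to 0.19 (males), -0.75 to -0.13 (*Scd1* to *Fasn*, females) and -1.98 to -0.27 (males). Males minus females ranged from -1.13 to -0.69 (*Scd2* to *Scd1*), 1.32 to 1.44 (*Fads1* to *Fads2*) and 0.69 to 1.54 (*Scd1* to *Fasn*). Outside these ranges lay -0.47 (*Scd2* to *Scd1*, U9-KO minus WT females) by medians and, without the 2 ovary-richest libraries, -0.66 and 1.26 (males minus females, *Scd2* to *Scd1* and *Fads1* to *Fads2*). Pseudocount and medians changed no call of a ratio. The pairs correlated by Pearson's r numbered 6 after the genotype means had been subtracted, of which 5 were those found before. By Spearman's rho the pairs went from 7 to 5.

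No pairing by replicate number was visible, as deviations of same-numbered mice had correlations of -0.44 to 0.11 in females and -0.12 to -0.01 in males. Correlations of so few pairs in mixed tissue cannot exclude a pairing. For U9-KO male 4 and WT male 3 the file columns carry the numbers 5 and 4 where the labels give 4 and 3, so the male pairing by label is uncertain. With the replicate block 0 genes were called in females, 0 in males and 0 in the interaction, and the blocked ratio tests (exact permutation within 5 or 3 pairs) could not go below p = 0.0625 or 0.25. The spread of the females and the 3 WT males limit what could be detected. Differences within the confidence intervals given above, which are not adjusted for the number of genes, are compatible with these data.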
